A study of Mus musculus with 4 samples.

Results

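Small nucleolar RNAs (snoRNAs) and small Cajal body RNAs were examined in the proximal colon of control and Nkx2-2 mutant mice. A gene was taken when its symbol began with Snord (box C/D class), Snora (box H/ACA class) or Scarna (Cajal body class). This gave 123 of 23699 gene rows and 114 of 23235 gene symbols, of which 69 were box C/D, 36 box H/ACA and 9 Scarna genes. RNA came from 2 cm of colon measured from the caecum, at 6 weeks of age, on a mixed strain background. The 2 control libraries carried the genotype Nkx2.2flox/+ with no Cre listed, and the 2 mutant libraries carried Nkx2.2flox/flox with Villin-Cre/+. Villin-Cre acts in the intestinal epithelium, so muscle, nerve and immune cells of the tissue piece keep their alleles. The labels do not say whether libraries of a group are separate animals, so p-values here measure the spread between libraries, which may be technical.

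Box C/D RNAs guide ribose methylation of ribosomal RNA by the enzyme fibrillarin, and box H/ACA RNAs guide the conversion of uridine to pseudouridine by dyskerin. Scarna RNAs carry 1 or both kinds of box, reside in Cajal bodies and act on spliceosomal RNAs. In mammals most of these RNAs are cut out of introns of host genes, many of which encode ribosomal proteins, and the mature forms lack a poly(A) tail. In whole tissue, fewer cells of a type and less RNA per cell cannot be told apart.

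The sequences below are those of the members on which the comparisons turn, read from the mm9 genome at the positions given in the files and shown in the direction of transcription. The box C/D genes are Snord15b (chr7:106628073-106628217, minus strand, 145 bases), its neighbour Snord15a (chr7:106631295-106631442, minus strand, 148 bases), Snord22 (chr19:8800356-8800481, plus strand, 126 bases), Snord17 (chr2:144091718-144091938, minus strand, 221 bases) and Snord96a (chr11:48615535-48615611, plus strand, 77 bases). Capitals mark TGATGA within the first 25 bases and the last CTGA within the last 20 bases, the letters used here for the C and D boxes.
Snord15b: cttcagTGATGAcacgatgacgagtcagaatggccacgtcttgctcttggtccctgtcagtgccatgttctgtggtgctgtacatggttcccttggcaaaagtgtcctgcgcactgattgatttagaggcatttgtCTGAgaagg
Snord15a: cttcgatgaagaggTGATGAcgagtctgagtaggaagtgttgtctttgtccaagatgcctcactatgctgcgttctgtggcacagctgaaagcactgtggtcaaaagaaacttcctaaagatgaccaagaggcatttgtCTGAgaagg
Snord22: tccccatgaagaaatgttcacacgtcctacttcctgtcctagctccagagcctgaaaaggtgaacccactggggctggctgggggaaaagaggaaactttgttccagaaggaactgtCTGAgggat
Snord17: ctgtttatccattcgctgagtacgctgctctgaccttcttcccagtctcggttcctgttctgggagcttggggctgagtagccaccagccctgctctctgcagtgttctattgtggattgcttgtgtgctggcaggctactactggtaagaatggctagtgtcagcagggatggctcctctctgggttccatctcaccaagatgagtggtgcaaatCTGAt
Snord96a: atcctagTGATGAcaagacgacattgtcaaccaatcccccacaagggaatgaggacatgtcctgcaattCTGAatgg

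The box H/ACA genes shown are Snora81 (chr16:23110843-23111006, plus strand, 164 bases) and Snora64 (chr17:24857734-24857850, plus strand, 117 bases), and the Scarna genes are Scarna13 (chr12:106269287-106269559, minus strand, 273 bases) and Scarna9 (chr9:15130733-15130774, minus strand, 42 bases). Capitals mark ACA within the last 8 bases, and TGATGA in Scarna9. The window of Snora81 holds no such ACA.
Snora81: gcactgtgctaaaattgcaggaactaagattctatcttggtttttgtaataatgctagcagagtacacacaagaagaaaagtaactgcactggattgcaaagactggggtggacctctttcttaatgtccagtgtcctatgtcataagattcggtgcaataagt
Snora64: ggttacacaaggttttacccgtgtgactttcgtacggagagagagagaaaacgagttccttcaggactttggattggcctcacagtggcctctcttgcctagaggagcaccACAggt
Scarna13: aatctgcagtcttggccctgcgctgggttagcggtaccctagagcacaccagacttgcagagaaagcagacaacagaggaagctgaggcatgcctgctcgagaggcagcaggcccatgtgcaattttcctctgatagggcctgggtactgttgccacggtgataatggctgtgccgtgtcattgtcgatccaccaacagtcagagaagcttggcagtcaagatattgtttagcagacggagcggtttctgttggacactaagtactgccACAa
Scarna9: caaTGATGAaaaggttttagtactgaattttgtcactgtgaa

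Of 67 distinct box C/D sequences, 66 (98.5%) held CTGA in the last 20 bases, against 10.4% of windows of the same length shifted by 1000 bases. The strict string TGATGA was found near the start in 20 of 67 (29.9%), against 2.99% of shifted windows. Of 36 box H/ACA sequences, 34 (94.4%) held ACA in the last 8 bases, against 5.56% of shifted windows. These searches were on the annotated strand. On the other strand 5 box C/D sequences held CTGA and 7 box H/ACA sequences held ACA. Snord15a and Snord15b, the pair known as U15, lie in the same host gene, Rps3, and were identical at 96 of 152 aligned columns (63.2%). Their longest identical run was 21 bases. The 10 rows of the Snord116 cluster, RNAs known from neurons, held 1 distinct sequence between them and no read in any library.

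Values come in a pair of measures. FPKM, which the authors deposited for each library with a 95% interval, is a number of fragments set against the length of the transcript and the size of the library. Reads are whole counts per library, worked back here from the mean normalized counts of each group in the authors' deposited table. Reads in genes came to 14597910 and 16474278 in the controls and to 7227060 and 15038997 in mutants 1 and 2. Reads were divided by a size factor per library (0.488 in mutant 1, 1.20 to 1.35 in the others) where they are called normalized reads. A rate ratio is the reads of the mutants over those of the controls, each summed over the libraries of the group and divided by the sum of their size factors, so the deeper library of a group weighs more in it. Nkx2-2 itself had 13 and 14 reads in the controls and 3 and 6 in the mutants. Colon epithelium markers summed to between 18126 and 25703 FPKM, none of the 10 at 0, against 42.5 to 64.0 FPKM for small intestine markers. Mutant 1 stood apart from the other 3 libraries. Reads fell on 506 of 1123 olfactory receptor genes there, against 29 to 31 elsewhere. The ribosomal RNA gene Rn45s held 18.1% of the reads of mutant 1 and 4.53% of those of mutant 2, the most of any gene in both. Other genes led in the controls, at 2.30% and 2.17%, so Rn45s held no more than that there. The T cell markers summed to 185.4 and 114.1 FPKM in the controls and to 61.7 and 79.1 FPKM in the mutants, none of the 4 at 0. The B cell markers summed to 77.9 FPKM in control 1 and to 5.30 to 8.49 FPKM elsewhere. Blood markers summed to 72.6 and 104.3 FPKM in the controls and to 30.3 and 52.1 FPKM in the mutants, and enteric neuron and glia markers to 13.1 and 12.5 FPKM against 6.91 and 8.84 FPKM. Markers of brain and neurons were lower in both mutants too, at 17.8 and 23.3 FPKM against 25.3 and 27.3 FPKM. At an unadjusted p under 0.05, 2 of 4 T cell, 1 of 2 blood and 2 of 5 enteric neuron and glia markers were lower (limma). Of all genes 4.12% were lower at that p, and no marker of these lists passed the adjusted threshold. Both mutants lay below both controls in FPKM for 35.1% of all tested genes, whose median log2 change was −0.17. The part of these differences in the results below was not tested, apart from the values given without mutant 1.

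Most of the small RNA genes had reads but no FPKM. Their lengths ran from 42 to 273 bases with a median of 81.5 bases. All 76 members shorter than 112 bases were listed at 0 FPKM in every library, and 63 of these had at least 1 read. Of the 38 members of 112 bases or more, 27 were listed above 0 in at least 1 library and 11 were not. The same held for other genes with a single transcript, since none of the 163 genes up to 75 bases and none of the 354 genes from 76 to 100 bases had an FPKM above 0. The shortest transcript of any kind with an FPKM above 0 was 108 bases long. Snord96a showed the gap most plainly. This gene, 77 bases long in an exon of the ribosome-associated gene Gnb2l1, had the most reads of all members (34 and 29 in the controls, 10 and 37 in the mutants), and was listed at 0 FPKM throughout. An FPKM of 0 for a short member is therefore a value of the file and not a level of 0.

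**Figure D1:**
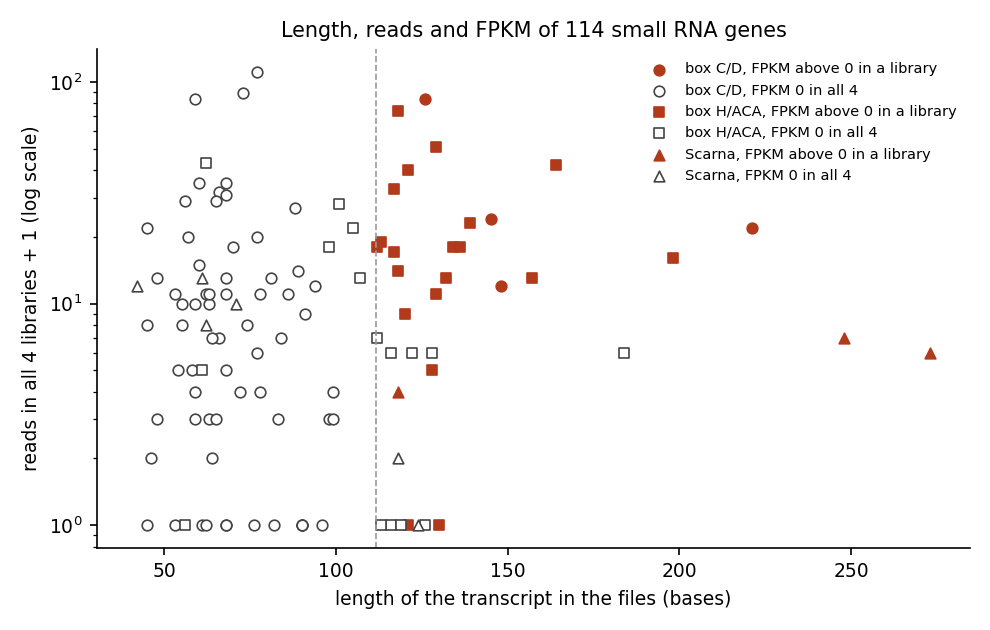
Length of each of the 114 small RNA genes in bases against its reads summed over the 4 libraries plus 1, on a log axis, with the class given by the marker shape. Filled markers had an FPKM above 0 in at least 1 library, open markers had none, and the dashed line stands at 112 bases, the shortest filled marker.

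By reads, 94 of 114 members were seen, 53 had at least 10 reads over the 4 libraries and 20 had none. The median was 8.5 reads, and 49 members had a read in every library. The 8 members with the most reads held 36.1% of all 1578. After Snord96a these included the box C/D genes Snord104 (28, 30, 13 and 17 reads in control 1, control 2, mutant 1 and mutant 2) and Snord52 (29, 25, 11 and 18 reads). The box H/ACA genes among them were led by Snora65 in the ribosomal protein gene Rpl12, with 19, 26, 6 and 22 reads. At these numbers the counting error alone is large, and the intervals given for reads cover counting error only.

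As a class, box C/D genes took 18.9 and 14.7 RPM in the controls (reads per 1000000 reads in genes) and 20.3 and 19.5 in the mutants. The exact Poisson 95% intervals were 16.7 to 21.3 and 12.9 to 16.7 for the controls, and 17.2 to 23.9 and 17.4 to 21.9 for the mutants. Control 1 thus lay within the intervals of both mutants, and control 2 lay below them. Box H/ACA genes took 11.5 and 8.74 RPM in the controls and 10.2 and 11.9 in the mutants, and the groups overlapped in RPM. RPM divides by all reads in genes, of which Rn45s held 18.1% in mutant 1. The rate ratio, which uses size factors, was 1.32 (counting interval 1.157 to 1.498) for box C/D and 1.25 (1.058 to 1.485) for H/ACA. Without mutant 1 these were 1.23 (1.067 to 1.428) and 1.25 (1.033 to 1.505). On size factors both classes thus summed higher in the mutants, with intervals for counting error only. Snord22, Snord17, Snord15a and Snord15b gave 30, 4, 3 and 1 of the 518 box C/D reads in the controls. In the mutants they gave 53, 17, 8 and 22 of 441. The box C/D ratio without these members was not computed, so no rise of the class beyond them is read from it. Summed FPKM gave another picture than RPM. Box C/D summed to 186.7 (interval 46.2 to 327.1) and 96.9 (5.54 to 188.2) in the controls. In the mutants it summed to 634.7 (269.5 to 999.9) and 769.0 (511.9 to 1026). Those sums rested on 4 genes, and without the 3 highest (Snord22, Snord15b and Snord15a) they came to 5.82, 1.72, 12.5 and 26.4 FPKM, which is Snord17 alone. Summed H/ACA FPKM was 567.7 (273.6 to 861.8) and 471.7 (220.7 to 722.7) in the controls and 567.4 (145.6 to 989.1) and 1131 (740.5 to 1521) in the mutants. In mutant 2 this sum held 82.8 FPKM of Snora24 and 74.3 FPKM of Snora26. These genes had no read in the authors' table and a status of too little data in every library. The intervals of sums take the members as independent.

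**Figure D2:**
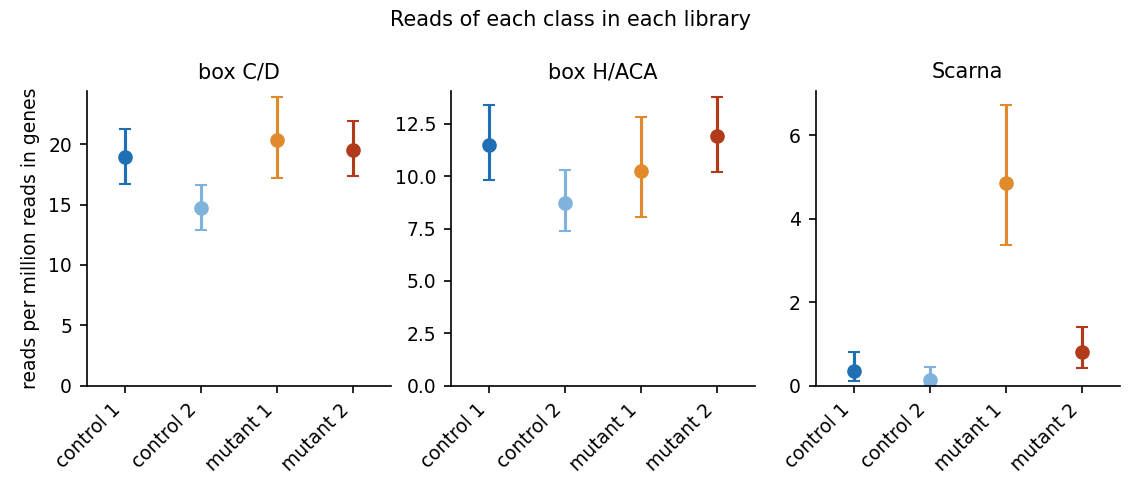
RPM (reads per 1000000 reads in genes) of the box C/D, box H/ACA and Scarna classes in each of the 4 libraries, with exact Poisson 95% intervals as bars. Box C/D and H/ACA values lay between 8.74 and 20.3, while the Scarna class stood at 4.84 in mutant 1 and under 1 in the other libraries.

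The main comparison asked which members differed between mutant and control colon. On FPKM, 25 members (4 box C/D, 18 box H/ACA and 3 Scarna) had a mean of at least 0.5 FPKM and could be tested, and 89 could not. Snord15b was the 1 member that passed, higher in the mutants, and none passed lower (limma, adjusted p under 0.05 over 13997 genes, of which 0.0357% passed higher and 0.0286% lower). The unadjusted p lay under 0.05 for 8 members with higher values (0.7% of all genes) and for 1 with lower values (4.12% of all genes). Of the 25, 19 were listed at 0 in at least 1 library, 8 at 0 in both controls and 2 at 0 in both mutants. A member that reached the minimum through 1 group alone had to differ between groups, so these counts are descriptions. Fits with 1 library left out have a single library in 1 arm, and members passing in them are not counted. The median log2 change, which the members at 0 in 1 group enter too, was 2.11 over the 25 members and −0.17 over all tested genes. The lowest mean among the tested members was 2.48 FPKM, in Scarna13, and the members outside the minimum were listed at 0 or had a status other than OK.

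Reads allowed more members to be compared. Of the 53 members with at least 10 reads, 14 (26.4%) had every mutant above every control in normalized reads, against 14.5% of all 16341 such genes. Both mutants were lower for 5 members (9.43%), against 14.6% of all genes. Some members reached 10 reads mainly through 1 group, such as Scarna9 (0 reads in the controls, 11 in the mutants) and Snord35b (9 and 1). The counts and changes over the 53 are therefore descriptions too. With limma-voom none of the 53 passed (0.0% of all genes did), and 2 members, Snord15b and Snord22, had an unadjusted p under 0.05, both higher in the mutants (1.03% of all genes were, and 1.38% were lower at that p). The median log2 change was 0.46 over the 53 members and 0.0027 over all genes, and 38 of the 53 changes lay above 0. In the authors' deposited table none of the 94 members with a p-value passed, where 0.0384% of all genes did, and the smallest p of a member was 0.0723, for Snord15b.

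Snord15b, a box C/D guide of ribosomal RNA methylation within an exon of Rps3, had 1 and 0 reads in the controls and 5 and 17 reads in mutants 1 and 2. Both mutants lay above both controls. In FPKM it was listed at 0 in both controls and stood at 135.3 (interval 14.3 to 256.2) and 194.8 (97.4 to 292.2) in the mutants. It reached the minimum for testing through the mutants alone, and both control values are the same 0, so no change is given on FPKM and its passing there is no evidence of a difference. By reads the log2 change was 4.35 (SE 1.396, interval 1.06 to 7.64), with a limma-voom unadjusted p of 0.0165 and an adjusted p of 1.00. The rate ratio, from 22 reads in the mutants and 1 in the controls, was 34.0 with a counting interval of 5.50 to 1404. Without mutant 1 it was 37.0 (5.795 to 1546).

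Its neighbour Snord15a, in an intron of Rps3, had 1 and 2 reads in the controls and 2 and 6 in the mutants. In normalized reads both mutants were higher, with a rate ratio of 4.12 and a counting interval of 0.990 to 24.1. FPKM put it at 11.3 and 19.999 in the controls and at 0 and 54.7 in the mutants, so those groups overlapped. Its log2 change was −1.56 in FPKM (SE 1.69, limma adjusted p = 0.834) and 1.83 in reads (SE 1.26, limma-voom adjusted p = 1.00). The host message Rps3, a ribosomal protein gene, stood at 505.7 and 446.2 FPKM in the controls and 432.4 and 444.7 FPKM in the mutants. Its log2 change was −0.12 (SE 0.16, limma adjusted p = 0.842).

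Snord22, a box C/D gene within an exon of the noncoding host gene Snhg1, had 20 and 10 reads in the controls and 17 and 36 in the mutants. After division by the size factors these were 15.9, 7.41, 34.9 and 30.0, with both mutants above both controls. FPKM was 169.6 and 75.1 in the controls and 486.9 and 493.1 in the mutants. The log2 change was 2.11 in FPKM (SE 0.33, interval 1.36 to 2.87, limma adjusted p = 0.183) and 1.52 in reads (SE 0.57, interval 0.19 to 2.85, limma-voom unadjusted p = 0.0304, adjusted p = 1.00), and neither passed. The rate ratio was 2.73, with a counting interval of 1.71 to 4.43, and 2.61 (1.56 to 4.39) without mutant 1. Snhg1 did not pass, with a log2 change of 0.001 in FPKM (SE 0.18, interval −0.40 to 0.41, limma adjusted p = 0.999).

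Snord17, a long box C/D RNA in an intron of the sorting nexin gene Snx5, had 3 and 1 reads in the controls and 3 and 14 in the mutants. In FPKM these were 5.82, 1.72, 12.5 and 26.4. Both mutants were above both controls in each measure once depth was taken into account. The log2 change was 2.32 in FPKM (SE 0.49, limma adjusted p = 0.447) and 2.57 in reads (SE 1.17, limma-voom adjusted p = 1.00). Snora74a, an H/ACA RNA in an intron of the noncoding host gene Snhg4, had 2 and 1 reads in the controls and 4 and 8 in the mutants. Its FPKM was 0, 2.64, 12.8 and 17.3 and its log2 change 3.62 in FPKM (SE 0.69, limma adjusted p = 0.361). The groups overlapped for Snord96a, Snord104 and Snord52. In normalized reads Snord96a stood at 27.02 and 21.5 in the controls and at 20.5 and 30.9 in the mutants, with control 1 and mutant 2 the higher of each group. The log2 change in reads was 0.21 for Snord96a (interval −0.86 to 1.28), −0.37 for Snord104 (−1.58 to 0.83) and −0.27 for Snord52 (−1.48 to 0.94).

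**Figure D3:**
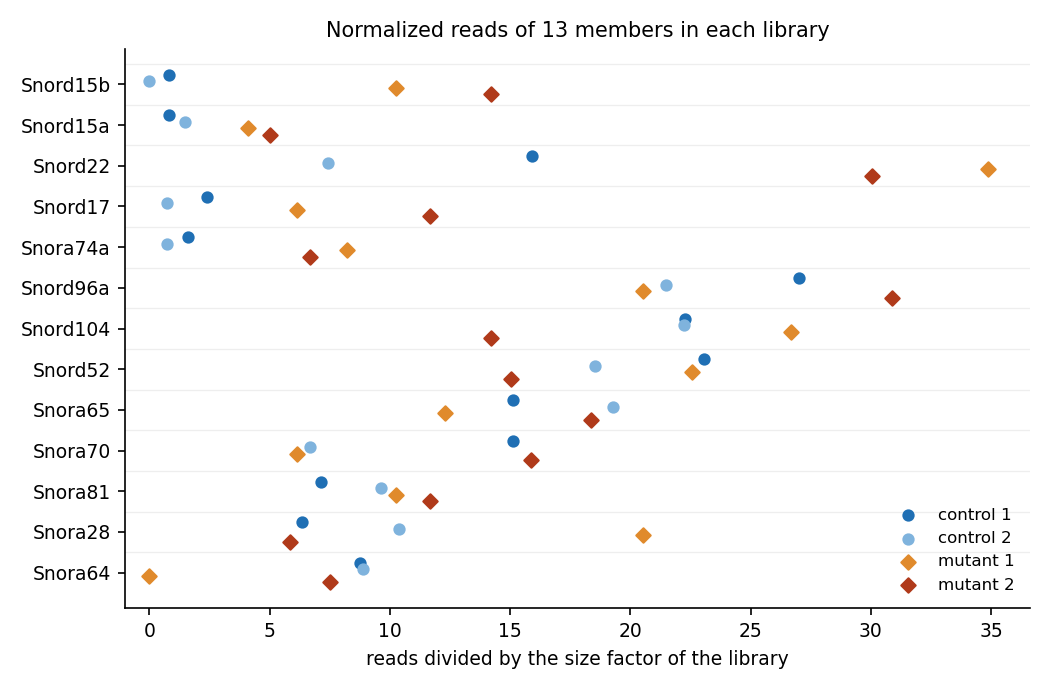
Reads divided by the size factor of the library for 13 named members, with circles for the 2 controls and diamonds for the 2 mutants. Snord15b, Snord15a, Snord22, Snord17, Snora74a and Snora81 had both mutants above both controls, and Snora64 had both below.

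Among box H/ACA genes, the measures often disagreed. Snora81, in an exon of the translation factor gene Eif4a2, stood at 34.0 and 30.1 FPKM in the controls and at 14.6 and 13.2 FPKM in the mutants. On that measure both mutants were lower, by a log2 change of −1.18 (SE 0.19, interval −1.60 to −0.74, limma adjusted p = 0.183). The reads were 9 and 13 in the controls and 5 and 14 in the mutants, and normalized for depth both mutants were higher (10.3 and 11.7 against 7.15 and 9.64). The log2 change in reads was 0.44 (SE 0.70, interval −1.21 to 2.09). The FPKM of the mutants rested on 1 and 2 fragments, as given by the width of the intervals, against 5 in each control. Snora65 was listed at 0 FPKM in control 1, where it had 19 reads. Its FPKM in the other libraries was 38.9, 94.6 and 42.6, and its log2 change was 3.85 in FPKM (SE 1.59, limma adjusted p = 0.825) and −0.04 in reads. Snora28, in an intron of the initiation factor gene Eif5, gave a log2 change of 4.51 in FPKM (SE 1.64, limma adjusted p = 0.825) and 0.07 in reads, from 8, 14, 10 and 7 reads.

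Snora64 in an exon of Rps2 was the H/ACA gene with the highest FPKM in the controls. Its controls were at 233.4 and 206.9 FPKM and its mutants at 0 and 181.0 FPKM, with 11, 12, 0 and 9 reads. Both mutants were below both controls in either measure, and the value of mutant 1 set the size of the difference. The rate ratio was 0.605 (counting interval 0.246 to 1.36) with both mutants and 0.851 (0.347 to 1.91) without mutant 1. The log2 change in FPKM of −4.53 (SE 2.10, limma adjusted p = 0.825) became −0.28 without mutant 1. Snora70 in the ribosomal protein gene Rpl10 ranged from 52.6 to 283.9 FPKM, both extremes in the mutants, and its log2 change was 0.46 (SE 0.66). Over the 20 members tested on both measures, 11 changed in the same direction, 4 were higher by FPKM and lower by reads, and 5 the reverse. Of 41 values with at least 5 reads among members of 112 bases or more, 6 were listed at 0 FPKM.

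**Figure D4:**
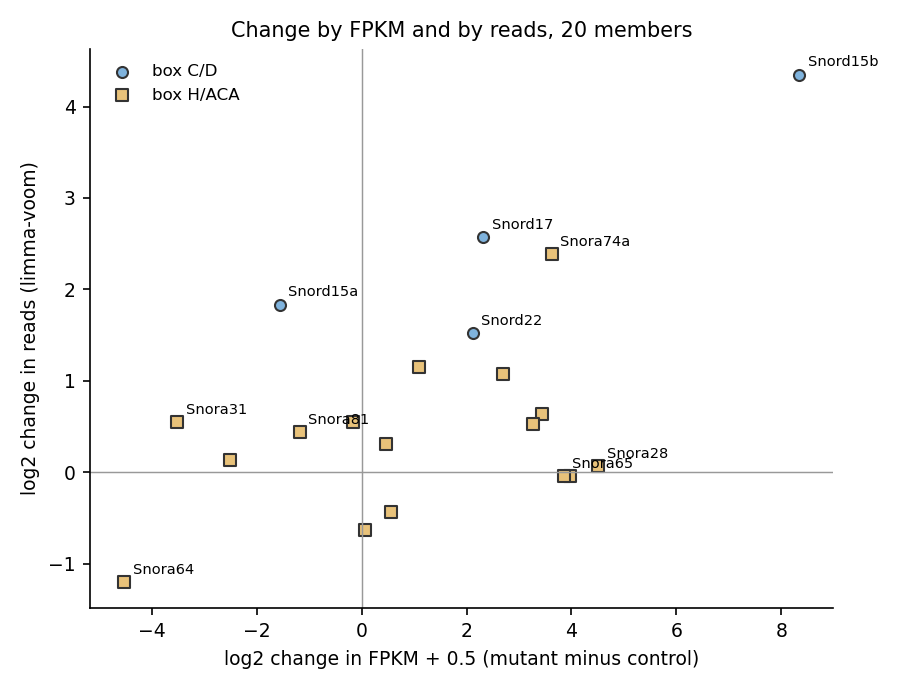
Log2 change (mutant minus control) in FPKM + 0.5 on the horizontal axis against that in reads from limma-voom on the vertical axis, for the 20 members tested on both. Snord15b lies furthest right and highest, with a read change of 4.35. Its FPKM is listed at 0 in both controls, so its horizontal place depends on the 0.5 added and is not given as a change. The signs of the 2 measures differed for 9 members.

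The 9 Scarna genes had few reads outside mutant 1. Together they had 5 reads in control 1, 2 in control 2, 35 in mutant 1 and 12 in mutant 2, or 0.343, 0.121, 4.84 and 0.798 RPM. The rate ratio was 10.4 (counting interval 4.66 to 27.2) with both mutants and 3.73 (1.35 to 11.2) without mutant 1, so that library moved the value by more than 1.5 times. Scarna9 had 10 reads in mutant 1, 1 in mutant 2 and none in the controls. Scarna2 had 8 reads in mutant 1 and 1, 2 and 1 in control 1, control 2 and mutant 2. Scarna10, a guide known to carry both kinds of box, had 6 reads in mutant 1 and 1, 0 and 2 in the others. The rows of these 3 genes were short, at 42, 61 and 71 bases, where GENCODE has 70, 414 and 325 bases. Scarna13, the 1 Scarna gene with both mutants above both controls in FPKM, stood at 0 and 0 in the controls and at 8.09 and 1.82 in the mutants. Those values correspond to 4 and 2 fragments by their intervals, while the authors' table gave 2 and 3 reads. It did not pass (limma adjusted p = 0.258). Like Snord15b, it reached the minimum for testing through the mutants alone, so its FPKM values are a description. Scarna6 had 1, 0, 4 and 1 reads. The olfactory receptor genes named above were also read most in mutant 1, at 121.3 RPM against 9.91 to 14.3 elsewhere, and the part of that library's background in the Scarna values was not tested.

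Where the members lie bears on what the reads can hold. By GENCODE, 30 of the 114 lay within an exon of a host transcript, 4 in part, 68 in an intron and 12 in no gene. Reads from a member inside a host exon and from the host cannot be told apart. The exonic members took 15.7 and 12.0 RPM in the controls and 13.8 and 18.1 in the mutants, and the intronic members 11.7 and 9.29 against 17.4 and 12.0. Intronic RPM was thus higher in both mutants, by little in mutant 2. These values are not divided by the size factors used for single members, and Rn45s held 18.1% of the reads of mutant 1. No difference by place is therefore read from them. In the files, 105 members lay inside the span of 78 host genes. A ribosomal protein gene held 30 members and an Snhg or Gas5 gene 13. None of the 76 tested hosts passed (limma, adjusted p under 0.05). At an unadjusted p under 0.05, 4 of the 76 were lower, where 4.12% of all genes were. Their median log2 change was −0.13, against −0.17 over all genes. The 9 Snhg and Gas5 hosts, noncoding genes known mainly for the snoRNAs in their introns, had a median of −0.02.

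Members and hosts with enough reads were set side by side in 48 pairs from 39 hosts. The log2 changes in reads of all 39 hosts stayed within 1 of 0, with an SD of 0.24. Those of the 48 members lay between −1.88 and 4.35 with an SD of 1.14, and 35 of them stayed within 1 of 0. Hosts had many more reads than the members, so the spreads also differ in counting error. Snord15b had 0.079 and 0 reads per 1000 reads of Rps3 in the controls and 0.990 and 1.47 in the mutants. Snord22 had 62.7 and 32.6 reads per 1000 reads of Snhg1 in the controls and 113.3 and 105.9 in the mutants.

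**Figure D5:**
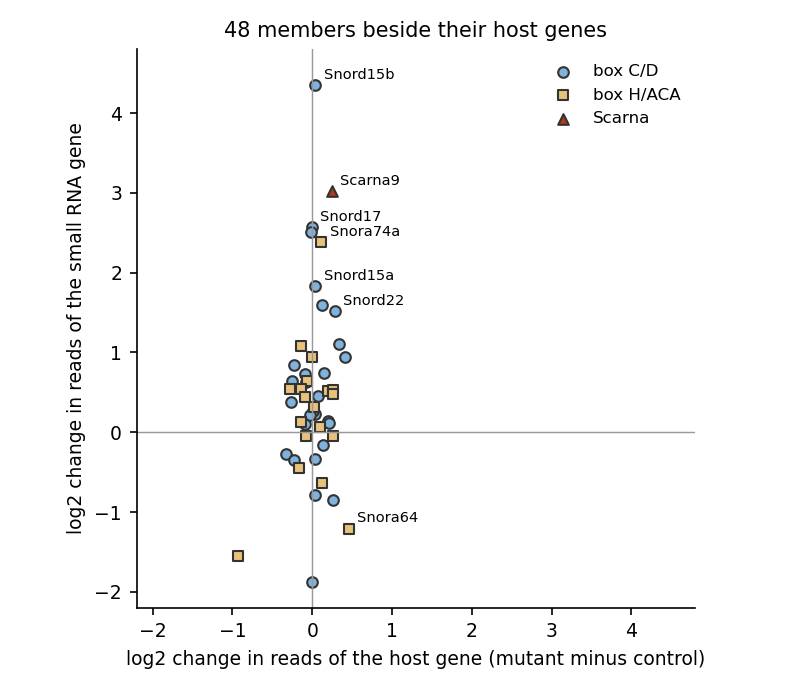
Log2 change in reads of 48 small RNA genes (vertical axis) against that of their host genes (horizontal axis), both mutant minus control and on equal scales, with the class given by the marker. All 39 hosts stayed within 1 of 0, and member changes lay between −1.88 and 4.35.

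The genes of the proteins that bind, build and process these RNAs did not pass. Of 31 listed, 29 were in the files and all 29 were tested, with 5 changes above 0 and 24 below, a median log2 change of −0.13 and none past the threshold (limma, smallest adjusted p = 0.825). None had an unadjusted p under 0.05. Fbl, the methylase fibrillarin, stood at 17.2 and 19.9 FPKM in the controls and at 13.2 and 22.7 FPKM in the mutants. The log2 change was −0.03 for Nop56 (interval −0.63 to 0.57) and 0.004 for Nop58 (−0.50 to 0.51), which share the box C/D particle with it. Dkc1, the pseudouridine synthase of the H/ACA particle, stood at 15.3, 15.5, 10.97 and 17.4 FPKM, with a log2 change of −0.15 (interval −0.71 to 0.41). Changes of the other H/ACA core genes were −0.20 for Nop10, 0.04 for Nhp2 and −0.17 for Gar1. Coil, the marker protein of Cajal bodies, had a log2 change of −0.17 (interval −0.73 to 0.39). Mutant 1 was the lowest of the 4 libraries for Fbl, Nop56, Nop58, Dkc1, Gar1 and Coil.

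Other RNAs without a poly(A) tail were read in these libraries. The RNA subunits Rmrp and Rpph1, parts of a pair of RNA-cutting enzymes, rose in the mutants by log2 changes of 2.951 (SE 0.21, limma adjusted p = 0.00186) and 3.08 (SE 0.32, adjusted p = 0.0163). Both tested genes of that list passed on FPKM, and neither passed on reads (limma-voom adjusted p = 0.0947 for Rmrp and 0.563 for Rpph1). Rmrp had 40 and 40 reads in the controls and 118 and 359 in the mutants. The telomerase RNA Terc, which carries an H/ACA box, had 3, 0, 1 and 1 reads and was not tested. Most messages of histone genes are not polyadenylated either. Of the 61 histone genes tested, 36 had every mutant above every control in FPKM, against 3.39% of all genes. None passed the adjusted threshold. Summed histone FPKM was 622.9 and 671.6 in the controls and 895.5 and 635.0 in mutants 1 and 2. The sum of mutant 2 thus lay between those of the controls. Whether the small RNA values moved with those of these genes was not tested.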

How the data were processed

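RNA of 4 colon libraries was sequenced on an Illumina HiSeq2000, per the labels' protocols, which name the TruSeq RNA kit and do not state strand. Build mm9 and TopHat, Cufflinks, DESeq and bcl2fastq 1.8.4 are listed in the submitters' processing notes. Other versions are not given in the sources used here. Per the file headers, the authors deposited FPKM with 95% intervals for 23699 gene rows. The coverage signal and length of 30028 transcripts are also deposited. The authors' deposited table of 23284 genes holds group means of normalized counts (a signal), the p-value with its adjusted form, and the fold change as a ratio and as log2.

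Each group mean was split into whole reads of its 2 libraries. All 17798 control and 20656 mutant means above 0 came out whole within a tolerance of 1e-06. The columns of reads were given to libraries within a group by their agreement with FPKM across genes (r = 0.986 in controls over 11783 genes, 0.971 in mutants over 10286), so which library of a group a read count belongs to rests on that match. RPM is reads per 1000000 reads in genes.

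Rows whose status was not OK in any library (306) were dropped and rows sharing a symbol summed. The minimum for testing was a mean of 0.5 FPKM. limma 3.58.1 in R 4.3.3 was fitted to log2(FPKM + 0.5), using a variance trend, and p was adjusted by Benjamini-Hochberg over 13997 genes at 0.05. The 0.5 added shrinks the changes of low genes. A listed 0 can enlarge a change instead, as for Snora65 (log2 change 3.85 in FPKM and −0.04 in reads). Genes with at least 10 reads in all were tested with limma-voom, an alternative added after the data were seen. With 2 libraries against 2 the smallest exact permutation p is 0.333, so none is given. Rate ratios of reads have exact binomial 95% intervals for counting error only. The limma fit on FPKM and the split into reads were tested on simulated data, and the limma-voom fit was not. Positions count from 1 on mm9, and exons come from GENCODE vM1. Numpy 2.4.6, scipy 1.17.1, pandas 2.3.3 and biopython 1.88 were used.

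The members and all lists were chosen with earlier results of these data known. The rule for naming took members past the threshold, up to 8 highest by mean FPKM in box C/D and H/ACA, and the Scarna genes. It also took up to 6 in each direction whose groups did not overlap, with at least 3 implied fragments. Their hosts, 4 core proteins of each box and Coil were added. Not all of these are described singly. Snora52, Snora16a, Snora78 and Scarna8, whose groups overlapped in FPKM, are not. Neither are Scarna3a, Scarna3b and Scarna17, which were listed at 0 FPKM. Members named for their reads were chosen after the values were seen. The numbers of the libraries do not pair them, since labels give no shared litter or day. Alternatives covered the pseudocount, filter, scaling, variance model, status, summing of rows, replicate number, each library left out, and the authors' table.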

Additional observations from a re-analysis of the deposited data

How the results depend on the processing

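Snord15b, listed at 0 FPKM in both controls, passed under every alternative on FPKM with all 4 libraries but 1. That was testing without a filter on low values, where 0 members passed. These alternatives share the zeros, so they do not bear on whether it differed. With limma-voom 0 members passed, with all libraries (2 had an unadjusted p under 0.05, and Rmrp and Rpph1 did not pass either) and with each left out in turn, and 0 passed in the authors' deposited table. Robust empirical Bayes gave 2 members, where 13 of 13997 genes passed, with Snora81 added as lower. Leaving out 1 library on FPKM gave between 3 and 22 members (18 when control 1 was left out, 22 for control 2, 6 for mutant 1 and 3 for mutant 2), where the lone library of an arm is assumed to vary like the other group. Snora34 had a log2 change of 0.55 with all libraries and −2.69 without control 2, and between −3.24 and 4.33 over all 4 libraries left out in turn. It was listed at 43.9, 0, 94.6 and 0 FPKM. The replicate number as a block gave 20 members and 195 genes of 13997, and the correlation of same-numbered deviations was −0.002, so the numbers were not taken as pairs. No protein gene passed under any alternative. Host genes passed in no fit with all 4 libraries, and host genes passing with 1 library left out are not counted. Counting a member as listed only with at least 3 implied fragments gave 5, 6, 6 and 9 members in the order control 1, control 2, mutant 1 and mutant 2, against 13, 14, 15 and 23. Without the 3 members with the highest mean FPKM, summed H/ACA FPKM was 212.2, 167.3, 276.6 and 629.97 in control 1, control 2, mutant 1 and mutant 2, and the C/D sums were 5.82, 1.72, 12.5 and 26.4. Depth limits all of this, since the median member had 8.5 reads in the 4 libraries together and mutant 1 held 7227060 reads in genes.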
